A study of Mus musculus with 11 samples.

Results

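The genes described here are 49 mouse imprinted genes from 22 imprinted domains, chosen by name from textbook lists and looked up by symbol in a table of 37224 genes. They were chosen with earlier results of these data known. Of the 49, 46 had an entry, and Rian, Mirg and Peg13 had none. The study compared T cell acute lymphoblastic leukaemias (T-ALL) with and without Utx, listed as Kdm6a, an X-linked enzyme that takes methyl groups off lysine 27 of histone H3. Blood progenitors positive for cKit, from mice on a C57/BL6 background, received Notch1-IC, the activated inner part of the Notch1 receptor, from a retrovirus in culture and were injected into a vein of recipient mice. Leukaemia cells were then taken from bone marrow or spleen.

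The Utx knockout group held 5 samples from male donors (Utx-/Y), 2 from bone marrow and 3 from spleen, of which 1 marrow sample was a repeat run. The Utx wild-type group held 6 samples from donors of either sex (Utx+/+ or Utx+/Y), 2 from bone marrow and 4 from spleen, with a repeat run in each tissue. All leukaemias of both groups carried Notch1-IC. The ages of donors and recipients, the treatment of the recipients before transplantation and the way Utx was deleted are not stated in the labels, and the recipients' own cells may contribute RNA. The values used were 1 pooled read count per gene and genotype, 106445530 counts for the knockout and 108015222 for the wild-type, and levels are given as CPM, counts per 1000000 counts of the pool. The difference between the pools therefore has no replicate check, and whether a value came from 1 tumour or from many cannot be told apart. Kdm6a had 1115 counts in the knockout against 6299 in the wild-type pool (log2 -2.48, 95% interval -2.57 to -2.38). Xist, a noncoding transcript made in female cells, had 75 and 21976 counts, so the pools also differed in the sex of their cells. The T cell markers were present as labelled: all 14 listed markers had at least 100 counts, and their summed level was 4116 CPM in the knockout and 4614 CPM in the wild-type pool.

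An imprinted gene is expressed from the copy inherited from the mother or from that inherited from the father. For many such genes, though not all, this is because DNA methylation laid down in a parent's germ line marks a control region nearby. Imprinted genes lie in clusters, and within a cluster some genes are expressed from the maternal and others from the paternal copy. Many of them act on fetal growth and are shut down in most tissues after birth, and in blood several are known from stem and progenitor cells. The counts used here hold no information on which copy was read, so the expressed copy given for each gene is textbook background.

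Of the 27 of these 49 genes with at least 100 counts, H19 stood furthest from equality. It is a long noncoding RNA expressed from the maternal copy, and its body also holds the hairpin of a microRNA. The hairpin is shown because reads over it were counted as a gene of its own, Mir675, beside H19. It lies at chr7:142577064-142577147 on the minus strand (RefSeq, GRCm38.p6), with the bases of both mature microRNAs in capitals. In the mature sequences the capitals mark the seed, bases 2 to 8.
Mir675 hairpin: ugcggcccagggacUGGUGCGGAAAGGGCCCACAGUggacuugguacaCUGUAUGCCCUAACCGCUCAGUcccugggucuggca
mmu-miR-675-5p: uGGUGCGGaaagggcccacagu
mmu-miR-675-3p: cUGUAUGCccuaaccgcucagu
The seeds of the 5p and 3p arms are different sequences. The libraries were poly(A)-selected per the labels, so reads over this stretch do not measure the mature microRNAs.

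Promoters were available for 40 of the 49 genes, as windows of 300 bases, most of them upstream of a transcription start (RefSeq, GRCm38.p6). They are shown for the genes called higher or lower below that hold the hexamer TGCCGC. The zinc finger protein ZFP57 binds this hexamer when it is methylated. The hexamer is in capitals and was searched on both strands, so that it can appear as GCGGCA. The windows are 1 of 4 Igf2 promoters at chr7:142661222-142661521 on the minus strand, 1 of 2 Grb10 promoters at chr11:12037371-12037670 on the minus strand, and the promoter listed for both Snrpn and Snurf at chr7:60005150-60005449 on the minus strand.
Igf2: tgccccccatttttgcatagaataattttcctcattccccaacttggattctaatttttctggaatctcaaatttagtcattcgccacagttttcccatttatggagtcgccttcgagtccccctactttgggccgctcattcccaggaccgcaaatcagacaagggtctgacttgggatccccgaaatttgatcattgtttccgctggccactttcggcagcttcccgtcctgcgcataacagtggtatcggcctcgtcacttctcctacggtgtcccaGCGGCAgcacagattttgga
Grb10: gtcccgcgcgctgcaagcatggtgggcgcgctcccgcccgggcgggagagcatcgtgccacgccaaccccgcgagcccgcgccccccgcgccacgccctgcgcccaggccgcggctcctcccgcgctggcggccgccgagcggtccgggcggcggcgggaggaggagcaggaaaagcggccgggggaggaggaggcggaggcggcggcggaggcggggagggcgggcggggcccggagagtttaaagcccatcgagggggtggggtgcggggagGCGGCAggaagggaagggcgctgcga
Snrpn and Snurf: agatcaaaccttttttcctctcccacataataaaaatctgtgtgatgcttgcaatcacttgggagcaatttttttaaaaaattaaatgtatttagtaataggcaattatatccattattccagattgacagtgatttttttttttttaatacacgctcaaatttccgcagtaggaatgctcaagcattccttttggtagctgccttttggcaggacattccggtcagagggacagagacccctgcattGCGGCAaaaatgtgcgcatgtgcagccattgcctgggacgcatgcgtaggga
Of the 60 promoters of the 40 genes, 16 held the hexamer, 26.7%, against 11.6% of the 32851 promoters of all genes. Some windows overlap, and the Snrpn and Snurf window is counted for each gene. With overlapping windows on the same strand merged, a count added after the data were seen, 14 of 57 held it, 24.6%, against 11.7% of 30704. The promoters shown for Igf2, Grb10 and Snrpn held 14, 45 and 7 CpG pairs, the median of the imprinted genes' promoters was 15 and that of all promoters was 7. The hexamer itself holds a CpG pair, and the shares with it were not matched for CpG number. GGNGGCAG, the end of the core of the CTCF sites upstream of H19, was searched on both strands and was found in 9 of the 60, 15%, against 12.6% of all promoters. The hexamer was in none of the listed promoters of Phlda2, Ddc and Dlk1, nor in the 3 other Igf2 and the 3 other Snrpn promoters, and no promoter of H19 or Dcn was used here. These matches describe letters in a window, and none is a measured binding site.

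Most imprinted genes were either scarcely read or near equality, and a few differed widely. The call of a gene as higher or lower needed at least 100 counts over both pools, a knockout over wild-type ratio of at least 2-fold in either direction after scaling to the pools' totals, and a 95% interval without 0. By this rule 7 imprinted genes were higher, H19, Igf2, Grb10, Dcn, Phlda2, Snurf and Snrpn, and 2 were lower, Dlk1 and Ddc. This is out of 27 with at least 100 counts, 25.9% and 7.41%, and the same rule called 11.2% of 13833 genes higher and 5.36% lower. Because the genes were chosen with earlier results of these data known, these shares describe the list and are no test. Snrpn and Snurf overlap, so the 7 hold a pair that is not separate observations. At 4-fold the numbers were 3 higher (H19, Igf2 and Grb10) and 2 lower against 3.95% and 1.4% of all genes, and at 1.5-fold 9 and 5 against 18.9% and 14.7%. With a minimum of 20 counts they were 11 and 2 of 33 imprinted genes, against 13.6% and 8.7% of all genes. With a minimum of 1 count they were 13 and 3 of 42, against 11.6% and 8.44%. Of the called genes, H19, Igf2, Grb10, Dcn and Phlda2 had under 100 counts in the wild-type pool, and Dlk1 and Ddc had under 100 in the knockout pool. These genes passed the minimum through the pool where they were higher. The 18 others with at least 100 counts had log2 ratios from -0.87 to 0.67. The intervals are exact Clopper-Pearson intervals, cover counting error only, and treat each read as a separate molecule, although the reads carry no molecular identifiers. The median log2 ratio of the 33 imprinted genes with at least 20 counts was 0.13, with Calcr at its lower bound as without, and that of all genes at the same minimum was -0.07. Over the 27 with at least 100 counts it was -0.06, against -0.07 for all genes at that minimum. The summed level of all imprinted genes was 1158 CPM in the knockout and 1129 CPM in the wild-type pool, or 1090 and 1128 CPM without H19. The authors' deposited table gave 18 imprinted genes as higher and 12 as lower at a q under 0.05, and 10 others above it, where the q rests on counting error and 30.4% and 37.4% of all 20904 genes given a fold change were so listed.

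**Figure D1:**
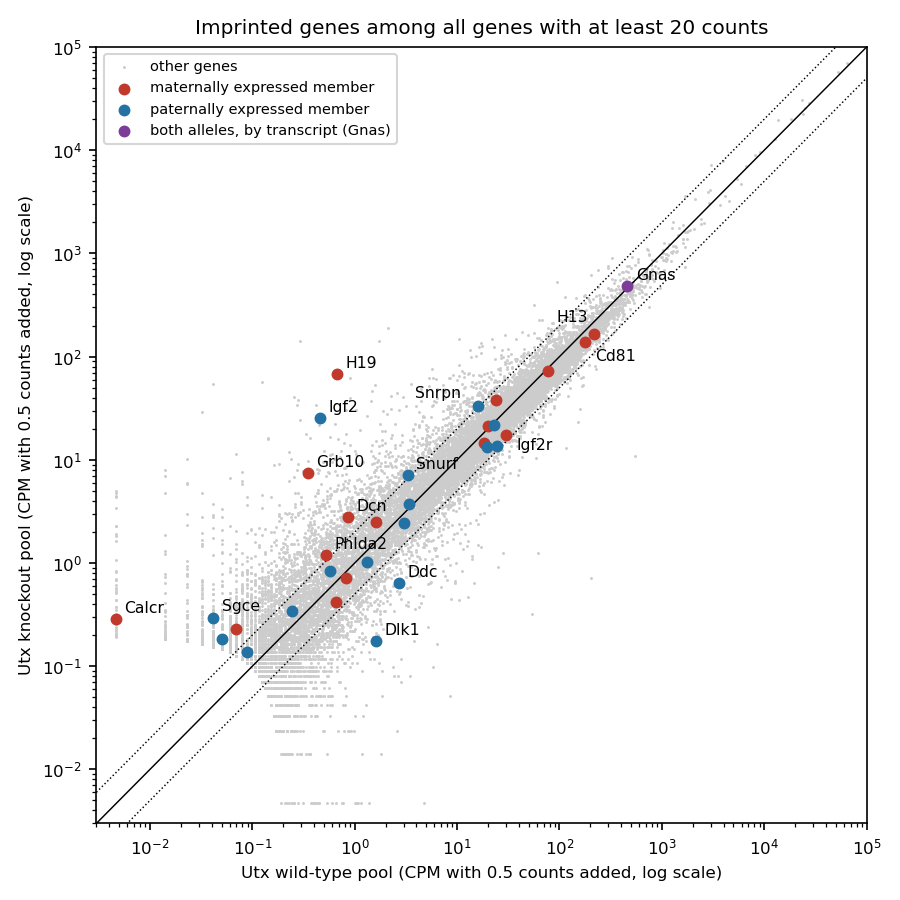
Level of every gene with at least 20 counts in the wild-type pool (x axis, CPM on a log scale, 0.5 counts added) and the knockout pool (y axis, same scale), with 33 imprinted genes coloured by their expressed copy; the solid line is equality and the dotted lines are 2-fold. H19, Igf2 and Grb10 lie far above the upper dotted line, Dlk1 and Ddc below the lower one, and the abundant Gnas, Cd81 and H13 near equality.

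At the Igf2-H19 domain on distal chromosome 7, both genes were higher in the knockout pool, although they are expressed from opposite parental copies. H19 (ENSMUSG00000000031, GRCm38 chr7:142575529-142578143, minus strand) had 7233 counts in the knockout against 72 in the wild-type pool, 68.0 against 0.667 CPM. That is a 102-fold ratio, log2 6.66 (6.34 to 7.03), the 33rd highest of the 13833 genes. Igf2 (ENSMUSG00000048583, chr7:142650766-142666816, minus strand), the fetal growth factor expressed from the paternal copy, had 2697 and 49 counts, 25.3 against 0.454 CPM. Its ratio was 55.9-fold, log2 5.79 (5.40 to 6.24), the 50th highest. Both genes had few reads in the wild-type pool and passed the minimum of 100 counts through the knockout pool. Per kilobase of annotated exon, H19 was at 0.271 CPM per kb in the wild-type pool and at 27.6 CPM per kb in the knockout pool, where only Cd81 and Gnas were higher among the 26 imprinted genes with at least 100 counts and a known length. Igf2 was at 0.0793 CPM per kb in the wild-type pool and at 4.43 CPM per kb in the knockout pool.

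The balance between the domain's 2 genes also differed between the pools. Igf2 counts were 37.3% of H19 counts in the knockout pool (35.7 to 39.0) and 68.1% in the wild-type pool (46.3 to 99.2), where they rest on few reads. Mir675, the hairpin inside H19 shown above, had 507 counts in the knockout against 3 in the wild-type pool, log2 7.20 (5.87 to 9.70). These were 7.01% of the H19 counts in the knockout pool (6.39 to 7.67) and 4.17% in the wild-type pool (0.840 to 12.7), and the intervals overlap. Since Mir675 lies within H19 and whether counting used the strand is not given, their counts may share reads. Igf2as, the antisense partner of Igf2, had 22 and 1 counts, and the same limit holds for it.

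No other measured gene within 600 kb came near these ratios, Mir675 and Igf2as apart. Lsp1, a leukocyte actin-binding protein, had 19578 counts in the knockout and 9703 in the wild-type pool, log2 1.03. Tnnt3, a muscle troponin, had 103 and 34 counts, log2 1.61. Mrpl23, a mitochondrial ribosomal protein and the nearest gene measured on the other side from Igf2, 34.8 kb from H19, had 9 and 41 counts, log2 -2.11. Ctsd, a lysosomal protease, was near equality at log2 0.11.

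The Grb10 domain on proximal chromosome 11 held 1 gene that was higher and 1 that was lower. Grb10 (ENSMUSG00000020176, chr11:11930508-12038683, minus strand) encodes an adaptor that dampens insulin and IGF receptor signalling and is expressed from the maternal copy in most tissues. It had 784 counts in the knockout against 37 in the wild-type pool, 7.37 against 0.343 CPM, a 21.5-fold ratio and log2 4.41 (3.95 to 4.94). Its level per kilobase was 0.0377 CPM per kb in the wild-type pool and 0.810 CPM per kb in the knockout pool. Ddc (chr11:11814101-11898144, minus strand), the decarboxylase that makes dopamine and serotonin, lies 32.4 kb away and is imprinted, from the paternal copy, in the heart. Ddc had 67 counts in the knockout against 295 in the wild-type pool, 0.629 against 2.73 CPM, a level 4.34-fold lower in the knockout pool, log2 -2.11 (-2.52 to -1.73). The antisense gene 1700042O10Rik, which overlaps Ddc, had 300 and 805 counts, log2 -1.40, so the reads of Ddc and this partner cannot be told apart without the strand. The next genes beyond Ddc were near equality, Fignl1 at log2 0.01 and Ikzf1, the lymphoid transcription factor Ikaros, at log2 0.02 with 77144 and 77000 counts.

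**Figure D2:**
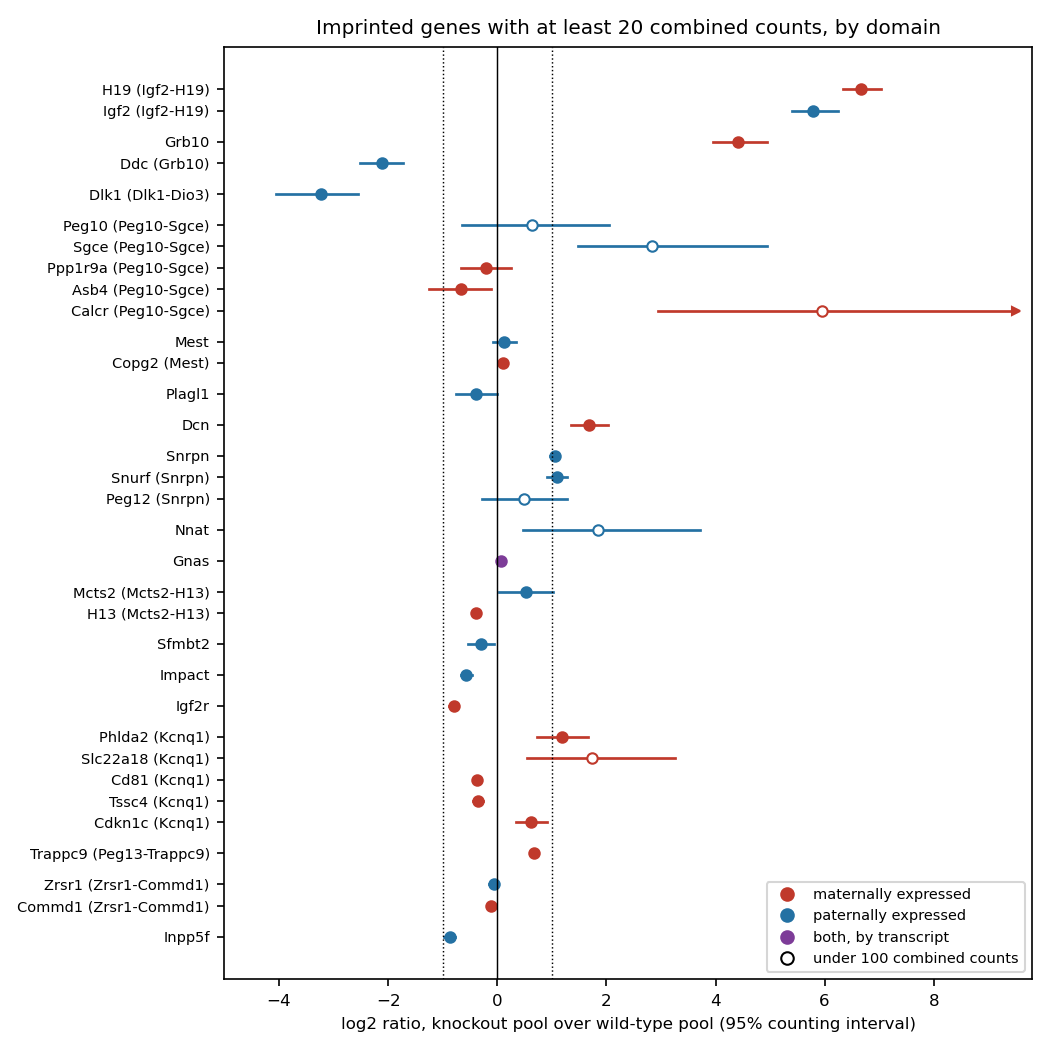
Log2 ratio of the knockout over the wild-type pool (x axis) with its 95% counting interval for the 33 imprinted genes with at least 20 counts, ordered by domain and coloured by expressed copy; open circles have under 100 counts, dotted lines mark 2-fold, and the arrow on Calcr stands for an interval without an upper end. H19, Igf2 and Grb10 lie above a log2 of 4, Dlk1 and Ddc below -2, and most others between the dotted lines.

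The Dlk1-Dio3 domain on distal chromosome 12 had few reads in either pool, 26 and 190 in sum over its listed genes. Dlk1 (chr12:109452823-109463336, plus strand), a membrane protein related to the Notch ligands and expressed from the paternal copy, had 18 counts in the knockout against 175 in the wild-type pool, 0.169 against 1.62 CPM. Its level was 9.58-fold lower in the knockout pool, log2 -3.22 (-4.05 to -2.56), the 61st lowest of the 13833 genes. Meg3, the maternally expressed noncoding RNA of this domain, had 4 and 11 counts, Dio3, which inactivates thyroid hormone, had 3 and 4, and Rtl1, a retrotransposon-derived gene of the placenta, had 1 and 0. These 3 genes were too scarcely read for a ratio to be drawn from them. Begain, a gene upstream of Dlk1 in the same region, had 87 counts in the knockout against 307 in the wild-type pool, log2 -1.79, while Wdr25 and Wars, further upstream, were at log2 0.10 and -0.14.

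Snrpn and Snurf, which share a promoter and a transcript on chromosome 7 and are expressed from the paternal copy, were both just past 2-fold. Snrpn (chr7:59974149-60005064, minus strand), a protein of the splicing machinery, had 3523 counts in the knockout against 1725 in the wild-type pool, 33.1 against 16.0 CPM, log2 1.05 (0.97 to 1.14). Snurf had 750 and 358 counts, log2 1.09 (0.90 to 1.27). Both intervals reach below 2-fold. Snurf counts were 21.3% of Snrpn counts in the knockout pool (19.7 to 23.0) and 20.8% in the wild-type pool (18.5 to 23.3), and the intervals overlap. Because the 2 genes overlap, they do not count as separate observations. The other paternally expressed genes of this domain were scarcely read: Peg12 had 36 and 26 counts, Ndn 3 and 2, Mkrn3 1 and 9, and Magel2 none. Ube3a, the ubiquitin ligase at the far end of the domain, 662.6 kb away, had 13398 and 12708 counts, log2 0.10.

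At the Kcnq1 domain, next to Igf2-H19 on chromosome 7, the listed genes did not move together. Phlda2, which restrains growth of the placenta and is expressed from the maternal copy, had 126 counts in the knockout against 56 in the wild-type pool, 1.18 against 0.518 CPM, log2 1.18 (0.73 to 1.67). Slc22a18, a transporter gene 2.2 kb away, had 24 and 7 counts, log2 1.73 (0.54 to 3.26), and stayed under the count minimum. Cdkn1c, the cyclin-dependent kinase inhibitor p57 known for holding blood stem cells at rest, had 264 and 174 counts, log2 0.62 (0.34 to 0.91). Cd81, a membrane tetraspanin, had 14597 and 19112 counts, log2 -0.37, and Tssc4 had 1538 and 1989, log2 -0.35. Ascl2, a transcription factor of the placenta, had 4 and 3. In the sum of its listed genes the domain was at 155.5 CPM in the knockout and 197.6 CPM in the wild-type pool. Kcnq1 itself, the potassium channel at the centre of the domain, was not among the 49 but differed most here: it had 72 counts in the knockout against 855 in the wild-type pool, log2 -3.54 (-3.92 to -3.20).

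Dcn, the gene of the matrix proteoglycan decorin, imprinted in the placenta, had 295 counts in the knockout against 93 in the wild-type pool, 2.77 against 0.861 CPM, log2 1.68 (1.35 to 2.04). Its neighbour Lum, encoding a related proteoglycan, had 10 counts in each pool. Dcn is also used as a marker of connective tissue. The 13 listed stromal markers had a median log2 ratio of 1.28, with 11 above 0 and 2 below. Of the 12 with at least 100 counts, 8 were higher in the knockout pool, 66.7% against 11.2% of all genes. These were Col3a1, Pdgfra, Lepr, Fn1, Sparc, Bgn, Vcam1 and Cxcl12, the last with 1857 and 249 counts. Pdgfrb alone was lower, with 3370 and 9531 counts, 8.33% of the 12 against 5.36% of all genes. The summed level of the 13 listed stromal markers was 231.7 CPM in the knockout and 186.9 CPM in the wild-type pool, and none was at 0. Pdgfrb made up 31.7 and 88.2 CPM of these sums. Col1a1 and Col1a2, collagens that define fibroblasts, were at log2 0.28 and -0.37. The part of stromal cells in the Dcn, Igf2 and H19 values was not tested. In bulk RNA, a difference in the number of cells of a type and a difference in RNA per cell cannot be told apart.

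**Figure D3:**
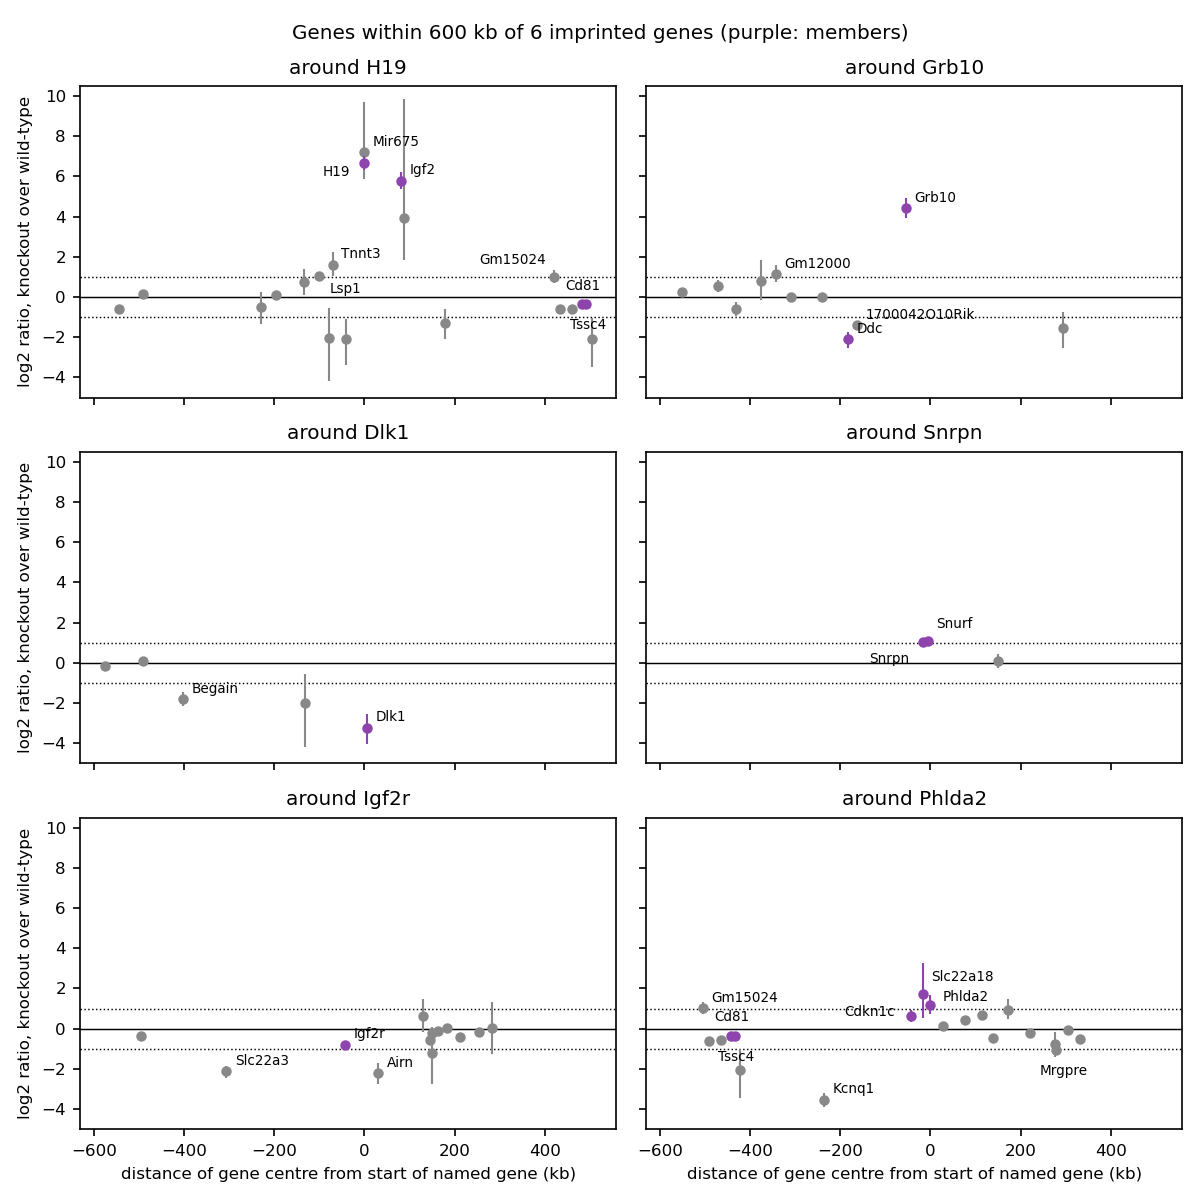
Log2 ratio of the knockout over the wild-type pool (y axis, bars are 95% counting intervals) against the distance of each gene's centre from the start of the imprinted gene named above each panel (x axis, kb), for genes with at least 20 counts within 600 kb; imprinted genes of the list are purple and dotted lines mark 2-fold. H19 and Igf2 stand above their surroundings, Grb10 and Ddc lie on opposite sides of 0, and Kcnq1, Slc22a3 and Airn lie below -2.

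The imprinted genes with the most reads were near equality. Gnas, whose main product is the stimulatory G protein alpha subunit and whose other transcripts come from one or the other parental copy, had 51614 counts in the knockout against 49798 in the wild-type pool, log2 0.07 (0.06 to 0.09). It made up 484.9 of the 1158 CPM of all imprinted genes in the knockout pool. Cd81 and Gnas had the highest levels per length in both pools, 47.6 and 43.3 CPM per kb in the knockout and 61.5 and 41.2 CPM per kb in the wild-type pool. H13, a signal peptide peptidase, had 17544 and 23236 counts, log2 -0.38, with 18.6 and 24.2 CPM per kb. Its neighbour Mcts2, a retrogene inside H13 expressed from the paternal copy, had 88 and 62 counts, log2 0.52 (0.04 to 1.02). Commd1, a regulator of copper balance, had 7661 and 8406 counts, log2 -0.11, and Zrsr1, a splicing factor retrogene lying inside Commd1, had 2335 and 2472, log2 -0.06 (-0.14 to 0.02). The last of these ratios changes sign with the scaling used, and because each retrogene lies inside its host, reads may be shared.

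Among the remaining genes with at least 100 counts, the receptor that clears IGF2 lay below equality without reaching 2-fold. Igf2r, expressed from the maternal copy, had 1845 counts in the knockout against 3245 in the wild-type pool, log2 -0.79 (-0.88 to -0.71). Airn, the antisense noncoding RNA that silences Igf2r's paternal copy in mouse tissues, had 38 and 179 counts, log2 -2.20 (-2.76 to -1.70). Slc22a3, a cation transporter of the same domain, had 117 and 523, log2 -2.13 (-2.44 to -1.85). Of these 3 genes, Airn and Slc22a3 were called lower, and Igf2r lay below equality within 2-fold. Airn counts were 2.06% of Igf2r counts in the knockout pool (1.45 to 2.84) and 5.52% in the wild-type pool (4.72 to 6.41). Airn overlaps Igf2r on the opposite strand, so these shares depend on whether counting used the strand.

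Inpp5f, a phosphoinositide phosphatase, had the lowest ratio among the genes under 2-fold, with 1434 and 2665 counts, log2 -0.87 (-0.97 to -0.78). Trappc9, a component of a vesicle transport complex, had the highest ratio among them, with 4043 and 2571, log2 0.67 (0.60 to 0.75). Impact, a regulator of the translational stress response, had 1416 and 2130, log2 -0.57. All 3 lay between equality and 2-fold. Mest, an alpha/beta hydrolase fold protein abundant in embryonic mesoderm, had 394 and 365 counts, log2 0.13 (-0.08 to 0.34), and Copg2, a coat protein subunit that overlaps it, had 2271 and 2150, log2 0.10. Plagl1, a zinc finger protein regarded as a node of the imprinted growth genes, had 108 and 143 counts, log2 -0.38, and Sfmbt2, a Polycomb group protein, had 261 and 325, log2 -0.29. Ppp1r9a, a neuronal actin-binding protein, had 76 and 89, log2 -0.21. Asb4, a ubiquitin ligase adaptor of blood vessels, had 44 and 71, log2 -0.66.

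**Figure D4:**
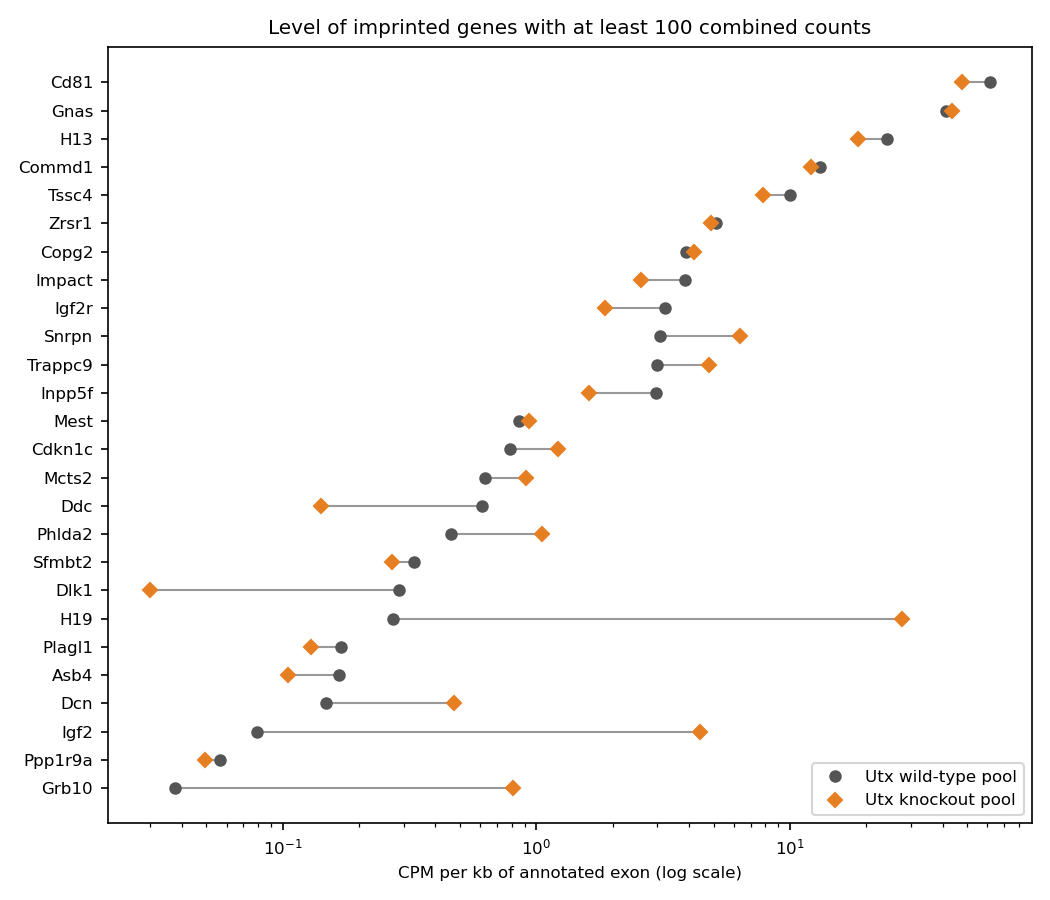
Level of 26 imprinted genes with at least 100 counts, in CPM per kilobase of annotated exon (x axis, log scale), ordered by the wild-type pool; circles are the wild-type and diamonds the knockout pool, 1 pool each with no replicate. H19 moves from 0.271 to 27.6 and Igf2 from 0.0793 to 4.43 CPM per kb, while Cd81, Gnas and H13 keep high levels in both.

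The scarcely read genes are given as counts. In the Peg10-Sgce domain on chromosome 6, Sgce, a muscle membrane sarcoglycan, had 31 counts in the knockout against 4 in the wild-type pool, log2 2.83 (1.48 to 4.94). Calcr, the calcitonin receptor, had 30 counts and 0, a log2 ratio of at least 3.34 against a floor of 3 counts, and Peg10, a retrotransposon-derived gene needed for the placenta, had 14 and 9. Nnat, a membrane proteolipid of neurons and beta cells, had 19 and 5 counts, log2 1.85 (0.48 to 3.72). Except for Peg10, the genes named in this paragraph so far had intervals above 0 at under 100 counts. Peg3, a zinc finger protein, had 9 and 1 counts, Nap1l5 had 8 and 1, and Rasgrf1, a guanine nucleotide exchange factor, had 0 and 3. Usp29, Zim1 and Zdbf2 had none in either pool, and the limit that 0 sets, 3 counts, is 0.0282 CPM in the knockout and 0.0278 CPM in the wild-type pool.

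The genes were also grouped by the expressed copy that textbooks give, which for some, such as Ddc and Dcn, holds in other tissues. Which copy was read in these leukaemias, or whether both were, was not measured. Of 21 genes expressed from the maternal copy, 14 had at least 100 counts, and 4 of these were higher, H19, Grb10, Dcn and Phlda2, and 0 lower, 28.6% and 0%. Of 27 expressed from the paternal copy, 12 had at least 100 counts, and 3 were higher, Igf2, Snrpn and Snurf, and 2 lower, Dlk1 and Ddc, 25% and 16.7%. Snrpn and Snurf overlap and are not separate observations, and shares with the pair merged were not computed. Over all genes the shares were 11.2% and 5.36%. The median log2 ratio was 0.36 over 16 maternally expressed genes and 0.31 over 16 paternally expressed genes with at least 20 counts, and it was -0.0063 and -0.18 at the higher minimum of 100 counts. The summed level of the maternally expressed genes was 548.5 CPM in the knockout and 567.7 CPM in the wild-type pool, that of the paternally expressed genes 124.2 and 100.2 CPM. No test of a difference between the classes was made.

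The list of genes that set or keep imprints has 20 genes, of which 17 had at least 100 counts, 0 were higher and 1 was lower, 5.88%, against 11.2% and 5.36% of all genes. Its median log2 ratio was -0.21. The gene that was lower was Ctcfl, the germ line paralogue of CTCF, with 38 and 142 counts, log2 -1.87 (-2.44 to -1.36). Ctcf, the insulator protein that binds between Igf2 and H19, had 23423 and 31183, log2 -0.39. Dnmt1, the maintenance DNA methyltransferase, was at log2 -0.41, Trim28, the co-repressor recruited by ZFP57, at -0.49, and the de novo methyltransferase Dnmt3b at -0.66. Zfp57 itself had 1 and 2 counts. On the higher side were Smchd1, a chromosomal protein of X inactivation and imprinted clusters, at log2 0.53, Dnmt3a at 0.18 and Setdb1 at 0.00.

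Of 30 further imprinted genes, 15 had at least 100 counts, 2 were higher and 3 lower, 13.3% and 20%, against 11.2% and 5.36% of all genes, and the median log2 ratio was -0.21. Slc38a4, an amino acid transporter of liver and placenta, had 478 counts in the knockout against 0 in the wild-type pool, at least 162-fold higher against a floor of 3 counts. Gab1, a docking protein of growth factor receptors, had 405 and 97 counts, log2 2.08 (1.76 to 2.42). The 3 lower genes were Kcnq1, Airn and Slc22a3, given above. The rest with at least 100 counts ran from Blcap at log2 -0.69, Tspan32 at -0.61 and Casd1 at -0.52 up to Pon3 at 0.39 and Atp10a at 0.83.

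The list of insulin-like growth factor (IGF) genes held more higher than lower calls, 54.5% and 9.09% of its genes with at least 100 counts, where 11.2% and 5.36% of all genes were called. This list too was chosen with earlier results of these data known, so its shares describe it and are no test. IGF2 and IGF1 act through the receptor Igf1r, are held by binding proteins of the Igfbp family, and signal through Irs adaptors. Of 18 listed genes, 11 had at least 100 counts, 6 were higher and 1 lower, and the median log2 ratio was 0.74. Igfbp5 had 1191 counts in the knockout against 61 in the wild-type pool, log2 4.30 (3.94 to 4.70). Igfbp2, a binding protein known from fetal tissues, had 133 and 5 counts, log2 4.62 (3.50 to 6.40). Igfbp4, the most read of the family, had 17274 and 5297, log2 1.73 (1.68 to 1.77). The binding proteins did not all go one way: Igfbp7 had 557 and 409 counts, log2 0.47, Igfbp6 had 3 and 14, log2 -2.03 (-4.64 to -0.36), and Igfbp1 had none. Igf1 had 556 and 162 counts, log2 1.80, Irs2 had 1303 and 644, log2 1.04 (0.90 to 1.18), and Igfbp3 had 403 and 202, log2 1.02 (0.77 to 1.27). Below 100 counts, Irs1 had 17 and 73, log2 -2.05 (-2.94 to -1.31), and Igfals, a carrier of circulating IGF, had 7 and 33, log2 -2.14 (-3.64 to -1.02), and both lay below equality. The lower gene was Igf2bp3, a fetal RNA-binding protein that binds Igf2 transcripts, with 1984 and 4488 counts, log2 -1.16 (-1.23 to -1.08). The receptors were closer to equality, Igf1r at log2 -0.17 and Insr at 0.30.

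Markers of other cell types differed between the pools too, and their part in the imprinted genes' values was not tested. The lists are short, and over all genes with at least 100 counts 11.2% were higher and 5.36% lower. Of 14 stem and progenitor markers all had counts, 8 had at least 100, 5 were higher, Kit, Gata2, Erg, Cd93 and Hoxa9, and 0 lower, and their summed level was 102.0 CPM in the knockout and 25.0 CPM in the wild-type pool. Of the liver markers, Ahsg, the gene of the plasma protein fetuin, had 366 counts in the knockout against 0 in the wild-type pool, at least 124-fold higher. Alb, the albumin gene that defines hepatocytes, had 12 and 0, Afp 44 and 18, Apoa1 9 and 12, and Ttr 0 and 4, and Apob and Serpina1a were at 0 in both. The summed level of the 8 liver markers was 4.07 CPM in the knockout and 0.315 CPM in the wild-type pool. In the endothelial list 3 of 8 genes were higher, Emcn, Esam and Cldn5, and 0 lower, with summed levels of 84.9 CPM in the knockout and 68.2 CPM in the wild-type pool. In the megakaryocyte list 4 of 6 were higher, Pf4, Ppbp, Itga2b and Itgb3, and 0 lower, with 37.4 and 15.3 CPM. In the erythroid list 3 of 9 were higher, Hba-a1, Hba-a2 and Alas2, with 25723 and 12888 CPM. In the granulocyte and monocyte list 7 of 14 were higher, Mpo, Csf1r, Cd14, Marco, C1qa, C1qb and C1qc, with 2634 and 2063 CPM. In the NK cell list 5 of 6 were higher, Klrb1c, Klrd1, Prf1, Gzmb and Fasl, while the summed level of 229.6 and 244.3 CPM was mostly that of Gzma, at 192.9 and 236.0 CPM. In the B cell list 0 of 5 were higher and 2 lower, Pax5 and Spib, with 7.21 and 11.0 CPM. In the nervous tissue list 1 of 4 was higher, Tubb3, and 1 lower, Map2. Its summed level of 185.8 and 122.8 CPM was mostly that of Mbp, at 138.5 and 99.5 CPM. Of the T cell list, 0 of 14 were higher and 1, Thy1, was lower at log2 -1.06, which TMM scaling brings within 2-fold. The only markers at 0 in both pools outside the liver list were Snap25 and Nefl, both neuronal.

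**Figure D5:**
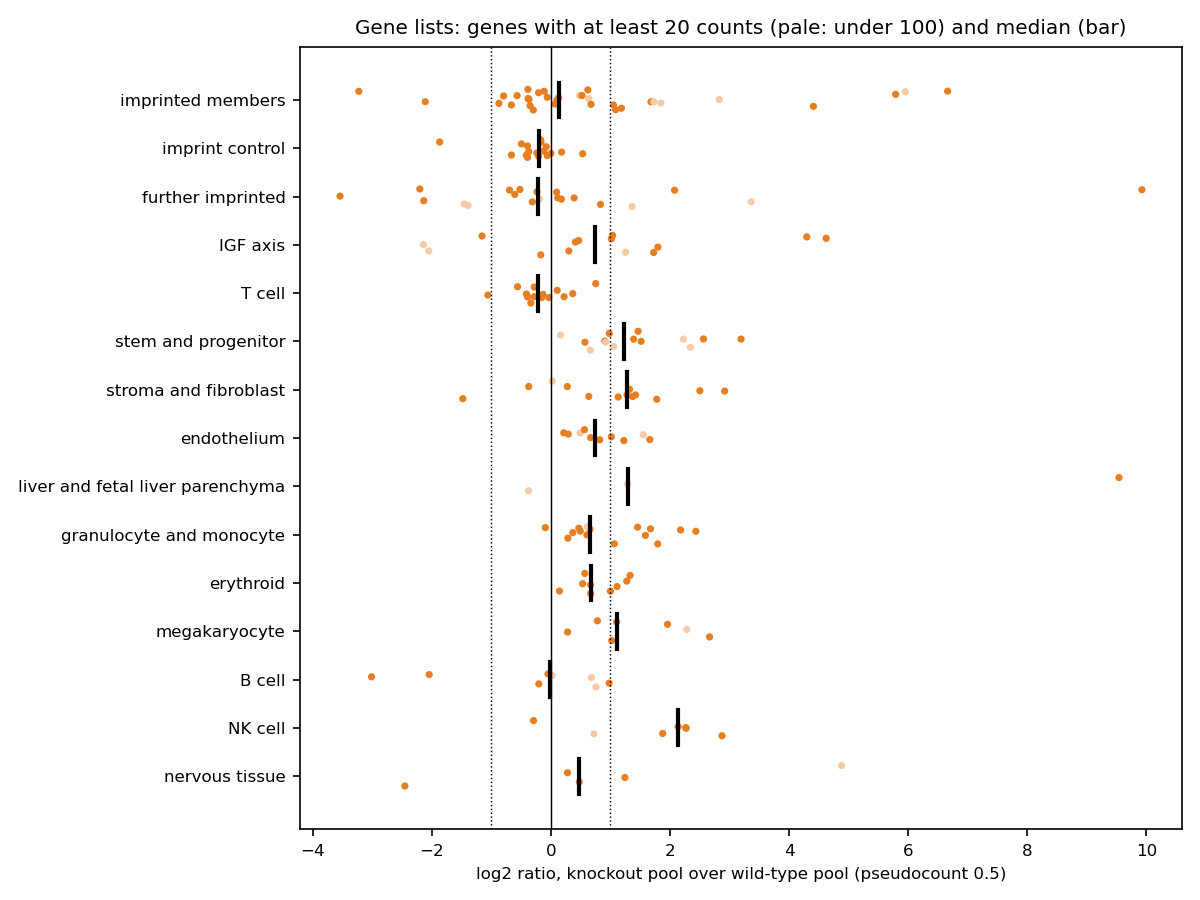
Log2 ratio of the knockout over the wild-type pool (x axis, pseudocount 0.5) for each gene with at least 20 counts in each list (rows, points spread vertically for display), pale points having under 100 counts; black bars are list medians and dotted lines mark 2-fold. The imprinted genes spread from below -3 to above 6 around a median of 0.13, the imprint control list runs from Ctcfl at -1.87 to Smchd1 at 0.53 around a median of -0.21, and the median of the IGF list is 0.74.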

How the data were processed

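The authors' deposited table, made with DEGseq per the series' design text, holds whole read counts pooled by the authors per genotype, per the file headers and values. The samples entering each pool, the annotation and any strand setting are details not given in the sources used here. CASAVA, TopHat and mm9 are named in the submitters' processing notes. The labels' protocols give poly(A) selection, strand-marked libraries and single reads of 50 bases. The authors' table also holds deposited log2 fold changes. They were used for the direction of the authors' own calls and for the 2-fold limit in a check. That check, with at least 100 counts and a q under 0.05, gave 7 higher and 2 lower imprinted genes. The authors' table further holds a score per gene, a z statistic the authors obtained with DEGseq per the file headers, which was not used. Of its deposited p-values and q-values, the Benjamini-Hochberg q was used. The first count column was taken as the knockout pool, from the order in the table's title.

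Ratios were computed from counts scaled to pool totals with a pseudocount of 0.5, in Python 3.11.15 with scipy 1.17.1. Positions and exon lengths came from GENCODE M21 (GRCm38), to which 98.4% of genes with at least 100 counts matched by identifier; Snurf was placed by name and given no length. Just above 100 counts the median half-width of an interval was 0.54 on the log2 scale. With pooled values no test across samples was run. TMM and upper quartile factors came from edgeR 4.0.16, as scaling alternatives only. Every imprinted gene with at least 100 counts was named, and of the other lists the called genes and, for the lists tied to imprinting and IGF, up to 3 at each end; further genes, neighbours included, were named after their values were seen. The imprinted genes and the lists were chosen with earlier results of these data known.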

Additional observations from a re-analysis of the deposited data

How the results depend on the processing

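All 9 calls held under the 5 other settings of scaling and pseudocount. No other of the 27 genes gained a call, and only Zrsr1 changed sign, reaching 0.03. The largest shift of the ratios by a scaling was 0.091 (log2). The number of higher genes was 11 with a minimum of 20 counts, where Sgce, Calcr, Slc22a18 and Nnat joined, 13 with a minimum of 1, and 3 at 4-fold. The higher genes that joined at the lower minimums had most of their reads in the knockout pool. Without genes that overlap another gene the number of higher genes was 3, Grb10, Dcn and Phlda2. That setting takes out H19, Igf2, Snrpn and Snurf, which overlap Mir675, Igf2as or each other. It also takes out uncalled genes such as H13 and Commd1, and the share of all genes under it was not computed. The number of lower genes was 5 at 1.5-fold, where Igf2r, Inpp5f and Asb4 joined, and 1 without overlapping genes. For all genes the counts of higher and lower, 1551 and 741 as reported, were 2330 and 1495 at a minimum of 20, 2718 and 1973 at a minimum of 1, 2617 and 2037 at 1.5-fold, and 546 and 193 at 4-fold. In place of the median of 0.13, the mean over the imprinted genes was 0.82, or 0.74 with Calcr at its bound. For maternally expressed genes the median was -0.0063 at a minimum of 100 counts, and the mean at the minimum of 20 was 1.26, or 1.10 with Calcr at its bound. For paternally expressed genes the median was -0.18 at a minimum of 100 counts. No paired analysis was possible because the table holds 1 pooled column per genotype, and for the same reason no replicate could be left out. Depth limits the genes under 100 counts, and no setting here can show the spread between animals.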
